A study of Mus musculus with 9 samples.

Results

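The clustered replication-dependent histone genes were described here in splenic dendritic cells of mice with T cell acute lymphoblastic leukemia (T-ALL) and of normal mice. Members were the rows of the gene table that were annotated as protein coding and whose symbol began with Hist1h, Hist2h, Hist3h or Hist4h. This gave 67 of 54532 listed genes, of which 6 encode linker histone H1, 18 encode H2A, 18 encode H2B, 12 encode H3 and 13 encode H4. Of the 67 genes, 54 lie on chromosome 13 between positions 21715763 and 23934851 (Hist1), 10 on chromosome 3 between 96219865 and 96270132 (Hist2), 2 on chromosome 11 between 58948920 and 58956830 (Hist3) and 1 on chromosome 6 between 136801553 and 136804415 (Hist4), all in build mm10, which is the same assembly as GRCm38.

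RNA of 9 samples in 3 groups of 3 had been sequenced. N-mDCs were mature conventional dendritic cells from the spleen of normal mice. T-mDCs were the same kind of cell from the spleen of T-ALL mice, and T-DCs were CD11c+MHCIIlo spleen cells of T-ALL mice, which the labels call immature dendritic cells. Leukemia was established with GFP+ T-ALL cells that came from c-kit+ marrow cells transduced with a retrovirus carrying the intracellular domain of Notch1. The leukemia cells were transplanted at 1000000 per mouse into C57BL/6J or C57B6.SJL recipients that were not irradiated. Mice were 6 to 8 weeks old, and cells were enriched with CD11c microbeads after lysis of red blood cells and sorted on day 15. T-DCs had no counterpart from normal mice, so in T-DCs against N-mDCs the leukemia and the MHCII gate cannot be told apart. Nothing states that the 3 samples of a group came from separate mice, and p-values then measure the spread between these samples, which may be technical.

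Each nucleosome wraps DNA around a core of H2A, H2B, H3 and H4, and H1 binds the linker DNA between nucleosomes. The genes for the bulk of these proteins are short, lack introns, lie in clusters and are transcribed mainly in S phase, when new DNA must be packaged. Their mRNAs usually end just past a conserved stem-loop instead of in a poly(A) tail. The stem-loop is bound by SLBP, cleavage just after it depends on the U7 small nuclear RNP, and the mRNAs are degraded when DNA synthesis stops. Fully differentiated cells can carry polyadenylated copies of some of these genes, whose transcripts run past the stem-loop to a downstream signal. Dendritic cells in the spleen arise from dividing precursors, whereas the mature stage divides little.

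The stem-loop is shown for members that recur in the results. Its position relative to the annotated 3′ end differs among members and is used below to group them. The letters are the GENCODE M21 transcripts of build GRCm38, read 5′ to 3′ on the strand of the gene, and capitals mark the 6-base stem arms with the 4-base loop between them.
Hist1h1c, chr13:23739507-23739532, plus strand: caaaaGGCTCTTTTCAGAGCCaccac
Hist3h2a, chr11:58955167-58955192, plus strand: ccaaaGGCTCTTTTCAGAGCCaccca
Hist3h2ba, chr11:58949344-58949369, plus strand: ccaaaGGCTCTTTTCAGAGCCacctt
Hist1h2bg, chr13:23571838-23571863, plus strand: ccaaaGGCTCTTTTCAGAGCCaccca
Hist1h3c, chr13:23745042-23745067, minus strand: aaaaaGGCTCTTTTAAGAGCCaccta
Hist1h3g, chr13:23535884-23535909, plus strand: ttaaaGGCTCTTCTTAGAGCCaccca
Hist1h4i, chr13:22040961-22040986, minus strand: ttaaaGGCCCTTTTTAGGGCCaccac
Hist1h4h, chr13:23531453-23531478, plus strand: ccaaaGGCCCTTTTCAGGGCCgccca
Hist1h4m, chr13:21812124-21812147, plus strand: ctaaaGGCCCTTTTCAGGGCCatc
A stem-loop of this form was found in the longest annotated protein-coding transcript of 45 of the 67 members (67.16%). In the same annotation it was found in any protein-coding transcript of 72 of 21866 protein-coding genes (0.3293%). The form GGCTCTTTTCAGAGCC was the most frequent, with 25 members of the H1, H2A, H2B and H3 classes, and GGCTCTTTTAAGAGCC was found in 6. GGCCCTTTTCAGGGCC was found in 7 members, all of the H4 class. A transcript in which no stem-loop was found mostly stops at or near its stop codon in the annotation, so the absence says only that these letters are not in the annotated transcript.

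The members also share a layout. In 13 pairs, 2 members read away from each other with starts 176 to 660 bases apart by the gene coordinates, and 12 of the pairs join an H2A to an H2B gene. The stretch between the RefSeq starts is shown for 2 such pairs, 1 with and 1 without the octamer, because a pair shares 1 promoter region. RefSeq starts can differ from the gene coordinates. The stretches hold 179 and 163 bases, where the gene coordinates put the starts 176 and 296 bases apart. The letters are from RefSeq promoters of GRCm38, plus strand, and capitals mark the octamer ATTTGCAT, the CCAAT box (ATTGG on the other strand) and the TATA box TATAAA on either strand, none of which overlaps another here.
Hist1h2ae (minus strand) and Hist1h2bg (plus strand), chr13:23571221-23571399: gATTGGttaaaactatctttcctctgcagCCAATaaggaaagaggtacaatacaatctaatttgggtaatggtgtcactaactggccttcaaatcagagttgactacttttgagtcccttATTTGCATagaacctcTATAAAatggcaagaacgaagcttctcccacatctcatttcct
Hist1h2ak (minus strand) and Hist1h2bn (plus strand), chr13:21753913-21754075: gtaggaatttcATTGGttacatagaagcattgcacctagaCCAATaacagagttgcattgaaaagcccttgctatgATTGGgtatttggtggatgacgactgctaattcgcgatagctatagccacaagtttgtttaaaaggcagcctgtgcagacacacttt
Of the 67 members, 62 had a RefSeq promoter. Within 250 bases upstream of the start, on either strand, ATTTGCAT was present in 20.97% of these and in 1.601% of all 32851 RefSeq promoters. It was found in 7 of 18 H2A and 6 of 16 H2B promoters and in none of the 6 H1, 10 H3 and 12 H4 promoters. Windows of a divergent pair can overlap, so the same site can count for both genes, as for Hist1h2ae and Hist1h2bg. CCAAT was present in 82.26% of the members' promoters and 33.85% of all, with 18 of 18 in H2A and 16 of 16 in H2B against 3 of 12 in H4. TATAAA was present in 46.77% of the members' promoters and 12.37% of all. A match of letters is a description and not a binding site.

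Values were FPKM, that is, reads scaled by gene length and by a size for each library, so that levels of genes of different length are on 1 scale. This size did not follow the reads on genes, being 15498648 beside 16977553 reads in T-DC 2 and 19326367 beside 18288160 in T-mDC 2. Median-of-ratios scaling, which sets the typical gene equal between libraries, gave a factor of 1.00426 in all 9. The values were thus already on that scale, and as an alternative it could hardly change a result. The libraries held 15360815 to 18440913 reads on genes, and 2552 to 7994 of these fell on members. Low values rest on few reads, for example 9 reads for Hist1h2bg at 0.905 FPKM. Of the 67 members, 60 had a read in at least 1 library and 38 in every library. The 7 members listed at 0 in all 9 libraries were Hist2h2aa1, Hist2h2aa2, Hist2h2bb, Hist2h3b, Hist2h3c1, Hist1h1t and Hist1h2aa. The first 5 of these have near-identical copies, and how reads shared between copies were assigned is not given in the sources used here. Over all members, 28 shared at least 50% of their 100-base stretches with another transcript and 6 shared none. All 18 H2A members and 6 others overlapped another listed gene, and values of such members may hold reads of that gene.

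The T-DC libraries did not resemble each other. T-DC 2 and T-DC 3 held 3.82% and 3.0% hemoglobin reads against 0.00111% to 0.405% in the other 7 libraries. The 13 dendritic cell markers summed to 13208 to 18343 FPKM in N-mDCs, 8123 to 11978 in T-mDCs and 515 to 2155 in T-DCs, with none of them at 0. The MHCII genes H2-Eb1, H2-Ab1 and H2-Aa carry these sums, which cannot be read apart from the MHCII gate. In T-DCs against N-mDCs 10 of the 13 fell (limma), among them these MHCII genes. Batf3, Flt3, Cd209a, Clec9a, Xcr1, Irf4 and Zbtb46 were below all mature libraries in every T-DC library. Sirpa, Itgax and Irf8 were not called. In T-DC 1, 2 and 3 they were at 404, 177 and 100, at 152, 90.4 and 43.0, and at 90.2, 36.4 and 26.3 FPKM. The mature libraries were at 124 to 244, 158 to 230 and 101 to 181. T-DC 3 alone held 0.919% reads of ribosomal RNA genes against 0.00616% to 0.102% elsewhere. T-mDC 2 and T-mDC 3 were much alike, with a chi-square of 1.852 per gene against 8.112 or more for the other pairs within a group. Results that rest on T-DC 1 are therefore given with and without it.

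Core histone mRNAs were high in T-DC 2 and T-DC 3 and low in T-DC 1 and in the 6 libraries of mature cells (N-mDCs and T-mDCs). Summed over the 13 genes of the class, H4 reached 12.3, 17.9 and 14.1 FPKM in N-mDC 1, 2 and 3, 12.1, 77.8 and 213 in T-DC 1, 2 and 3, and 11.3, 15.8 and 15.2 in T-mDC 1, 2 and 3. T-DC 1 thus sat among the mature cells for H4, whereas T-DC 2 was 5.38 times and T-DC 3 14.8 times the mean of the 6 mature libraries. The H3 sums were 6.07, 5.48 and 3.91 in N-mDCs, 3.23, 29.2 and 93.2 in T-DCs, and 9.06, 13 and 11.3 in T-mDCs. For H3 the lowest of all 9 libraries was T-DC 1 and the highest was T-DC 3. The H2B sums were 31.1, 33.3 and 25.9 in N-mDCs, 20.6, 105 and 159 in T-DCs, and 41.1, 43.2 and 42.6 in T-mDCs. The H2A sums were 11.5, 14.1 and 8.09 in N-mDCs, 6.33, 35.8 and 67.0 in T-DCs, and 11.4, 13 and 15 in T-mDCs. For both H2A and H2B, T-DC 1 was again the lowest library and T-DC 3 the highest. Since cells of a kind and RNA per cell are not separated in bulk samples, fewer expressing cells and less RNA per cell cannot be told apart here.

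**Figure D1:**
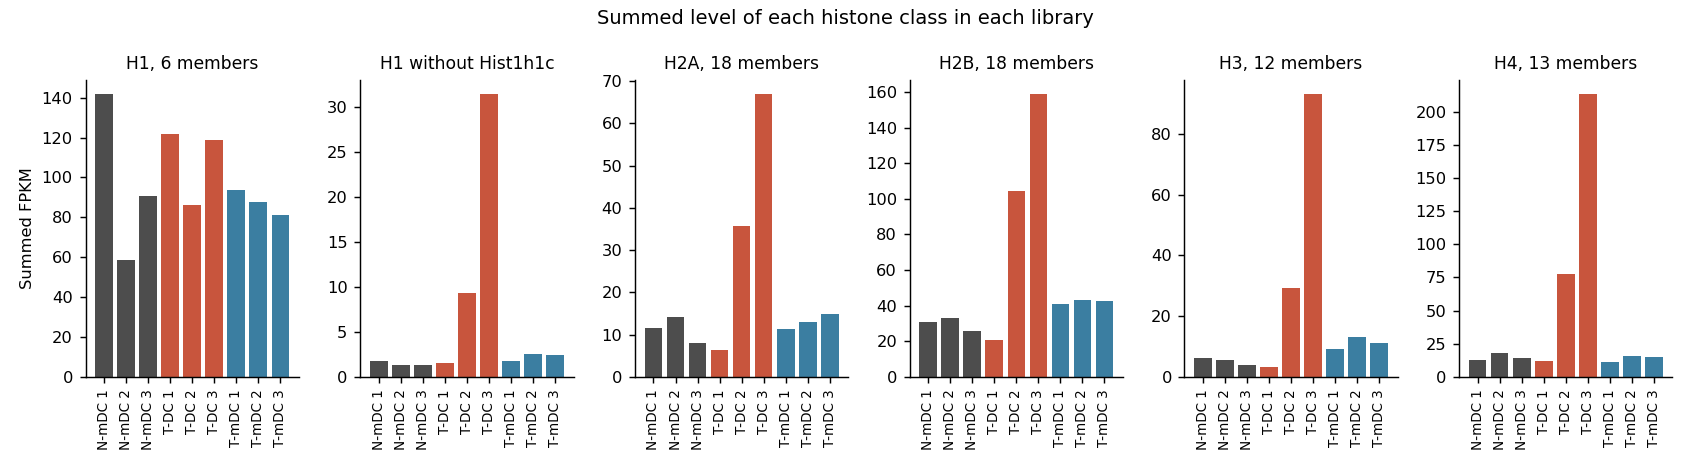
Summed FPKM of each histone class (bars, linear axes from 0) in each of the 9 libraries, with N-mDCs in grey, T-DCs in red and T-mDCs in blue, and H1 shown with and without Hist1h1c. For H2A, H2B, H3, H4 and H1 without Hist1h1c the bars of T-DC 2 and T-DC 3 exceed those of all 6 N-mDC and T-mDC libraries, and the bar of T-DC 1 does not.

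H1 behaved differently because a single gene made up most of the sum. The H1 sums were 142, 58.6 and 91.0 FPKM in N-mDCs, 122, 86.4 and 119 in T-DCs, and 93.7, 87.9 and 81.3 in T-mDCs, and the groups overlapped. Without Hist1h1c the H1 sums were 1.79, 1.34 and 1.32 in N-mDCs, 1.56, 9.39 and 31.5 in T-DCs, and 1.78, 2.52 and 2.38 in T-mDCs. The other H1 genes thus had the order of the core histones, with T-DC 3 at 17.0 times the mean of the 6 mature libraries.

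Because of the spread within T-DCs, group means of the sums had large errors. For H4 the mean was 14.8 ± 2.82 FPKM in N-mDCs, 101 ± 103 in T-DCs and 14.1 ± 2.42 in T-mDCs (SD, n = 3 each). For H3 it was 5.15 ± 1.11, 41.9 ± 46.3 and 11.1 ± 1.99, and for H2B 30.1 ± 3.80, 94.7 ± 69.7 and 42.3 ± 1.05, in the same order of groups. The SD of T-DCs was thus close to or above the mean for H3 and H4. In T-mDCs and N-mDCs the errors were small, and for H2B and H3 all 3 T-mDC sums lay above all 3 N-mDC sums. For H2A the means were 11.2 ± 3.0, 36.4 ± 30.3 and 13.1 ± 1.80 and for H1 97.2 ± 42.0, 109 ± 19.5 and 87.6 ± 6.22.

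The order of the libraries was shared by most members and not set by a few highly expressed ones. T-DC 2 was above all 6 mature libraries in 51 of the 57 members with a read there, against 33.7% of all genes with a read in that library, and T-DC 3 in 55 of 59, against 41.2% of all genes. T-DC 1 was above all 6 in 5 of 46 members, against 27.0% of all genes. T-DC 3 was the highest of the 9 libraries in 49 of the 60 detected members and T-DC 2 in 8. By class, both T-DC 2 and T-DC 3 were above the 6 mature libraries in 12 of 12 H4 genes with a read there. In H2B the counts were 14 of 16 and 17 of 17, in H2A 12 of 14 and 13 of 15, in H3 9 of 10 in both, and in H1 4 of 5 in both. More members were also detected in these libraries, with 42 members at 1 FPKM or more in T-DC 2 and 52 in T-DC 3 against 10 to 18 in the other 7 libraries. The median member was at 1.92 FPKM in T-DC 2 and 4.91 in T-DC 3 and at 0.144 to 0.513 in the others.

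**Figure D2:**
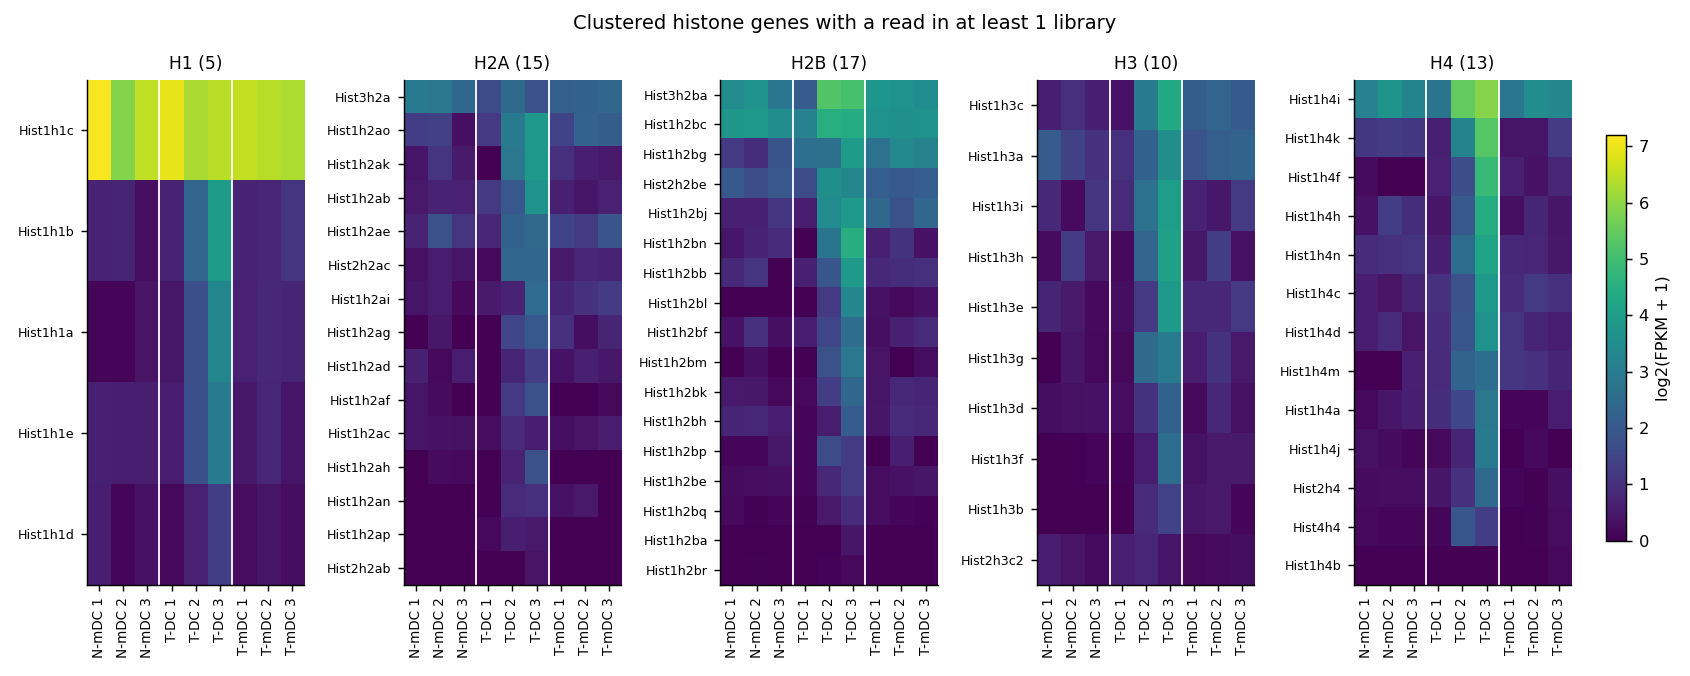
Level of each of the 60 detected members (rows, 1 panel per histone class, ordered by mean level) in each of the 9 libraries (columns), as log2(FPKM + 1) on a colour scale. The columns of T-DC 2 and T-DC 3 are brighter than the other columns in most rows, and Hist1h1c is bright in every column.

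Linker histones are described first. Hist1h1c (ENSMUSG00000036181, chr13:23738808-23740367), an H1 gene that resting cells also express, was at 140, 57.3 and 89.6 FPKM in N-mDCs, 120, 77.1 and 87.1 in T-DCs, and 91.9, 85.4 and 78.9 in T-mDCs. It was the most abundant member in every library, and the ranges of the 3 groups overlapped. Its log2 difference was 0.05 (SE 0.32, adjusted p = 0.925, limma) in T-DCs against N-mDCs, and it turned negative under other scalings and without T-DC 1. Hist1h1b, another linker histone gene, was at 0.603, 0.669 and 0.222 FPKM in N-mDCs, 0.601, 4.08 and 14.4 in T-DCs, and 0.642, 0.696 and 1.17 in T-mDCs. T-DC 1 was within the range of N-mDCs and the other T-DC libraries were above all mature ones. Its log2 difference was 1.75 (SE 0.67, adjusted p = 0.101, limma) against N-mDCs and 1.46 (adjusted p = 0.183, limma) against T-mDCs. Hist1h1a was at 0.0863, 0.0838 and 0.297 FPKM in N-mDCs, 0.377, 2.35 and 8.80 in T-DCs, and 0.572, 0.768 and 0.660 in T-mDCs. Hist1h1e was at 0.563, 0.515 and 0.514 in N-mDCs, 0.463, 2.37 and 6.72 in T-DCs, and 0.384, 0.724 and 0.338 in T-mDCs. Neither was tested, since fewer than 3 libraries reached 1 FPKM, and in both T-DC 1 lay below every T-mDC library or within their range.

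Among H2A genes, the highest level in N-mDCs was that of Hist3h2a (chr11:58954685-58956830), which overlaps Trim17. It was at 6.85, 6.25 and 4.36 FPKM in N-mDCs, 2.21, 4.63 and 2.49 in T-DCs, and 3.51, 3.74 and 4.18 in T-mDCs. It was the single tested member with a negative log2 difference between T-DCs and N-mDCs, which was -0.76 (SE 0.25, adjusted p = 0.0674, limma), and all 3 T-mDC libraries were below all 3 N-mDC libraries. Hist1h2ab (chr13:23751126-23751598) was at 0.406, 0.657 and 0.582 FPKM in N-mDCs, 1.30, 2.86 and 11.8 in T-DCs, and 0.560, 0.328 and 0.575 in T-mDCs. It was the single tested member whose 3 T-DC libraries were above all 6 mature ones, T-DC 1 included. Its log2 difference was 1.65 (SE 0.52) against N-mDCs and 1.71 against T-mDCs, each with an adjusted p of 0.062 (limma). Hist1h2ao, which shares 92.7% of its stretches with other transcripts, was at 1.47, 1.55 and 0.229 in N-mDCs, 1.28, 6.99 and 13.7 in T-DCs, and 1.77, 3.77 and 3.40 in T-mDCs. Hist1h2ak, whose shared promoter region is printed above, was at 0.325, 1.11 and 0.420 in N-mDCs, 0, 6.24 and 13.9 in T-DCs, and 0.944, 0.527 and 0.415 in T-mDCs. In both, T-DC 1 was below or within the range of N-mDCs, and the log2 differences against N-mDCs were 1.70 (SE 0.62, adjusted p = 0.0917) and 1.59 (SE 0.82, adjusted p = 0.199) in the limma fit. The other 11 detected H2A genes were at 0 to 2.70 FPKM in the 6 mature libraries and had medians of 0, 0.821 and 2.44 in T-DC 1, 2 and 3.

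Among H2B genes, Hist1h2bg was the member whose T-DC and T-mDC libraries were alike. Hist1h2bg (ENSMUSG00000058385, chr13:23571396-23572013), which shares its promoter region with Hist1h2ae as printed above, was at 1.35, 0.905 and 2.67 FPKM in N-mDCs, 5.24, 5.32 and 14.9 in T-DCs, and 5.49, 9.46 and 8.09 in T-mDCs. These values rest on 13, 9 and 30 reads in N-mDCs, 58, 51 and 140 in T-DCs, and 64, 113 and 92 in T-mDCs. Every library of both T-ALL groups was above every N-mDC library, and T-DCs and T-mDCs overlapped. Hist1h2bg rose in T-DCs against N-mDCs, with a log2 difference of 1.75 (SE 0.41, adjusted p = 0.0227, limma). Between T-mDCs and N-mDCs the log2 difference was 1.74 (SE 0.41, adjusted p = 0.0734, limma), and in T-DCs against T-mDCs it was 0.009 (adjusted p = 0.99, limma) and turned negative under TPM and quantile scaling. Its call against N-mDCs was lost without N-mDC 1 (adjusted p = 0.076, limma) and without N-mDC 2 (adjusted p = 0.0707, limma). It shares 44.9% of its stretches with other transcripts.

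The other H2B genes with high levels were expressed in all groups. Hist3h2ba (chr11:58948920-58949533) was at 10.2, 11.9 and 6.10 FPKM in N-mDCs, 3.18, 36.6 and 33.3 in T-DCs, and 12.7, 12 and 10.4 in T-mDCs. T-DC 1 was the lowest library of all 9 and T-DC 2 the highest, and the log2 difference against N-mDCs was 0.80 (SE 0.74, adjusted p = 0.472, limma). Hist1h2bc (chr13:23684199-23692908) was at 13.1, 13.3 and 10.6 in N-mDCs, 8.16, 21.9 and 21.1 in T-DCs, and 12.1, 11.1 and 12 in T-mDCs. Hist2h2be (chr3:96221119-96223738), an H2B gene known to give polyadenylated transcripts as well, was at 3.0, 2.28 and 2.90 in N-mDCs, 2.15, 11.1 and 8.75 in T-DCs, and 3.44, 2.98 and 3.49 in T-mDCs. In both, T-DC 1 was the lowest of the 9 libraries and T-DC 2 was the highest, with log2 differences against N-mDCs of 0.33 (adjusted p = 0.506) and 0.95 (adjusted p = 0.154) in the limma fit. The other 13 detected H2B genes were at 0 to 4.35 FPKM in the mature libraries and had medians of 0.0665, 1.49 and 4.15 in T-DC 1, 2 and 3. Of these, Hist1h2bj and Hist1h2bn, picked after their values were seen, reached 13.5 and 21.6 FPKM in T-DC 3 against 0.482 and 0 in T-DC 1.

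H3 genes showed wide gaps between T-DC libraries. Hist1h3c (chr13:23744973-23745602) was at 0.508, 0.986 and 0.525 FPKM in N-mDCs, 0.266, 6.86 and 19.8 in T-DCs, and 3.36, 4.11 and 3.11 in T-mDCs. All 3 T-mDC libraries were above all N-mDC libraries, whereas T-DC 1 was below them. The log2 difference was 1.83 (SE 0.82, adjusted p = 0.149, limma) in T-DCs against N-mDCs and 1.44 (adjusted p = 0.419, limma) in T-mDCs against N-mDCs. Hist1h3i was at 0.778, 0.151 and 1.21 in N-mDCs, 0.815, 5.49 and 15.1 in T-DCs, and 0.644, 0.378 and 1.32 in T-mDCs. Hist1h3h, which shares 92.0% of its stretches with other transcripts, was at 0.156, 1.36 and 0.402 in N-mDCs, 0.136, 4.08 and 16.5 in T-DCs, and 0.387, 1.51 and 0.265 in T-mDCs. In both, T-DC 1 was in or below the range of the mature libraries. The log2 differences against N-mDCs were 1.80 (SE 0.68, adjusted p = 0.0995) for Hist1h3i and 1.57 (SE 0.84, adjusted p = 0.213) for Hist1h3h in the limma fit. Hist1h3a was at 3.23, 1.63 and 1.03 in N-mDCs, 0.941, 3.75 and 10.7 in T-DCs, and 2.58, 3.49 and 3.87 in T-mDCs, so that T-DC 2 lay within the range of T-mDCs. The other 6 detected H3 genes were at 0 to 1.30 FPKM in the mature libraries and had medians of 0.142, 0.959 and 4.30 in T-DC 1, 2 and 3.

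H4 held the highest core histone level. Hist1h4i (chr13:22040636-22041362) was at 8.18, 12.1 and 8.48 FPKM in N-mDCs, 5.84, 43.8 and 58.3 in T-DCs, and 6.12, 10.5 and 9.12 in T-mDCs. T-DC 1 was the lowest of the 9 libraries, and the mean of 36.0 ± 27.1 in T-DCs stood beside 9.60 ± 2.20 in N-mDCs and 8.57 ± 2.22 in T-mDCs (SD, n = 3 each). The log2 difference was 1.33 (SE 0.70, adjusted p = 0.207, limma) against N-mDCs. Hist1h4k was at 1.23, 1.39 and 1.24 in N-mDCs, 0.537, 8.27 and 38.6 in T-DCs, and 0.340, 0.332 and 1.39 in T-mDCs. Hist1h4h was at 0.272, 1.45 and 0.937 in N-mDCs, 0.356, 3.02 and 20.9 in T-DCs, and 0.225, 0.661 and 0.347 in T-mDCs. T-DC 3 exceeded T-DC 2 by far in these genes, as it did in Hist1h4f. Hist1h4f, which was not tested, was at 0.164, 0 and 0 in N-mDCs, 0.571, 2.31 and 28.5 in T-DCs, and 0.542, 0.265 and 0.695 in T-mDCs.

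Hist1h4m (ENSMUSG00000069306, chr13:21811746-21812147) was the other member that rose in T-DCs against N-mDCs. It was at 0, 0 and 0.548 FPKM in N-mDCs, 0.833, 4.01 and 5.08 in T-DCs, and 1.19, 1.03 and 0.676 in T-mDCs. These values rest on few reads, 0, 0 and 4 in N-mDCs, 6, 25 and 31 in T-DCs, and 9, 8 and 5 in T-mDCs, and the gene shares 88.1% of its stretches with other transcripts. All libraries of both T-ALL groups were above all N-mDC libraries, while T-DC 1 lay within the range of T-mDCs. The log2 difference was 1.72 (SE 0.42, adjusted p = 0.0277, limma) against N-mDCs, and the call was lost without N-mDC 1, N-mDC 2, T-DC 2 or T-DC 3, with adjusted p of 0.0921, 0.0785, 0.0961 and 0.0853 (limma). Its annotated transcript ends 3 bases past the stem-loop printed above. The other 8 detected H4 genes were at 0 to 1.33 FPKM in the mature libraries and had medians of 0.431, 2.18 and 6.60 in T-DC 1, 2 and 3.

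Across all members the tests gave few calls while T-DC 1 was included. Genes were tested with limma on log2(FPKM + 1) where at least 3 of the 9 libraries reached 1 FPKM, and 28 of the 67 members passed this filter. Of these 28, 15 passed with fewer than 3 mature libraries at 1 FPKM, so their passing depended on T-DCs, and counts over the 28 are given as a description. In T-DCs against N-mDCs, 2 of the 28 were called, both higher (Hist1h2bg and Hist1h4m), against 16.4% of all 12746 genes tested in either direction. The median log2 difference of the 28 was 1.57 against 0.053 for all genes tested, and 27 of the 28 differences were positive. An unadjusted p below 0.05 (limma) was found for 11 of the 28 and for 4472 of the 12746 genes, which is a similar share. In T-DCs against T-mDCs, which share the leukemic host and differ in the gate, 0 of the 28 were called by limma against 14.2% of all genes. Limma voom on recovered reads called 0, and the median was 1.07 against 0.068. An unadjusted p below 0.05 (limma) was found for 6 of the 28 and for 3833 of the 12746 genes. For T-mDCs against N-mDCs, 0 of the 28 were called by limma against 2.21% of all genes, with 0 by limma voom and a median of 0.24 against 0.027. An unadjusted p below 0.05 (limma) was found for 1 of the 28 and for 2130 of the 12746 genes. Each group enters 2 of the 3 comparisons, so their values are not independent of each other. Scaling by the sum of FPKM (TPM) moved the median log2 difference of all genes to -0.04 for T-DCs against N-mDCs, to -0.23 when T-DCs were set against T-mDCs and to 0.23 for T-mDCs over N-mDCs. With it, 376 genes were called higher and 1339 lower in T-DCs against T-mDCs, beside 693 and 1120 without it.

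**Figure D3:**
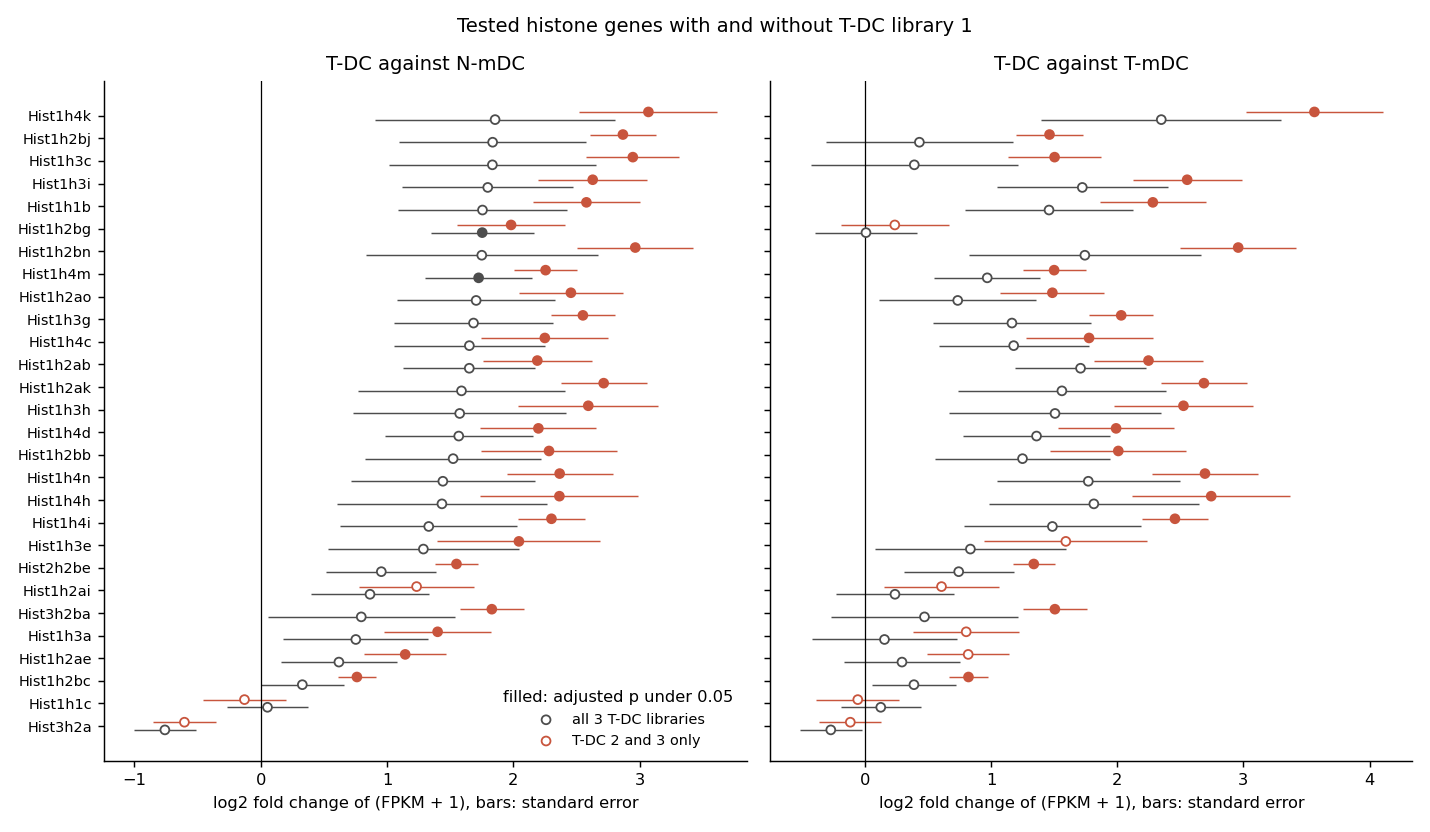
Log2 difference of each of the 28 tested members with its standard error (limma) in T-DCs against N-mDCs (left) and T-DCs against T-mDCs (right), with all 3 T-DC libraries (grey) and with T-DC 2 and T-DC 3 alone (red), where filled points have an adjusted p under 0.05. With all libraries, 2 points on the left and 0 on the right are filled, and with T-DC 2 and T-DC 3 alone 25 and 21 are.

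Leaving out T-DC 1 changed these counts. They remain a description, since 15 of the 28 members passed the filter with fewer than 3 mature libraries at 1 FPKM. Without it, 25 of the 28 members were called higher in T-DCs against N-mDCs (limma), with a median log2 difference of 2.27. Of all 12746 genes tested, 39.5% were called in either direction, 2611 higher and 2419 lower. Against T-mDCs 21 were called higher (limma), with a median of 1.69. Of all genes, 35.1% were called there in either direction, 2338 higher and 2137 lower. T-mDCs and N-mDCs kept their own libraries but share the estimate of spread with T-DCs. Between them 3 members were called higher in T-mDCs (Hist1h2bg, Hist1h2bj and Hist1h3c). Of all genes, 8.02% were called between these groups in either direction, 441 higher and 581 lower. Without T-DC 3, 1 member was called against N-mDCs (Hist1h2bg), and without T-DC 2 Hist1h2bg was called higher and Hist3h2a lower. The choice of T-DC 1 as the library to leave out was made with its values known, and nothing in the labels sets it apart.

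Complete separation of the groups was also counted, with T-DC 1 included. In T-DCs against N-mDCs all 3 T-DC libraries were above all 3 N-mDC libraries in 5 of the 28 members (Hist1h2ab, Hist1h2bg, Hist1h4m, Hist1h4c and Hist1h4d), against 16.0% of all genes tested. Against T-mDCs this held for 1 (Hist1h2ab), against 16.8%. Between the mature groups, all T-mDC libraries were above all N-mDC libraries in 9 of the 28, against 19.3% of all genes, and below in 2 (Hist3h2a and Hist1h4n), against 15.7%. The 9 were Hist1h2ao, Hist1h2ai, Hist1h2bg, Hist1h2bj, Hist1h3c, Hist1h3g, Hist1h3e, Hist1h4m and Hist1h4c.

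Members were also grouped by the annotated 3′ end of their longest protein-coding transcript, after their values were seen and as a description. The 22 members whose transcripts end within 100 bases past the stem-loop, such as Hist1h4m, summed to 9.73, 11.8 and 7.45 FPKM in N-mDCs, 8.03, 65.8 and 189 in T-DCs, and 19.4, 22.0 and 22.3 in T-mDCs. All 3 T-mDC sums of these members were above the N-mDC sums. The 17 members with no stem-loop in the annotated transcript and an end within 100 bases of the stop codon summed to 4.16, 6.20 and 4.93 in N-mDCs, 2.89, 41.2 and 149 in T-DCs, and 5.31, 6.88 and 7.32 in T-mDCs. T-DC 3 was 25.8 times the mean of the mature libraries in this set. The 22 members that run over 100 bases past the stem-loop, leaving out Hist1h1c, summed to 32.5, 38.4 and 27.0 in N-mDCs, 22.5, 114 and 194 in T-DCs, and 34.3, 43.9 and 41.3 in T-mDCs. In this set T-DC 3 was 5.35 times the mean of the mature libraries. The 5 members with no stem-loop and an end over 100 bases past the stop codon, Hist1h2bc, Hist2h2be, Hist1h2bp, Hist1h2bq and Hist1h2br, summed to 16.3, 15.7 and 14 in N-mDCs, 10.4, 35.6 and 32.2 in T-DCs, and 15.7, 14.7 and 15.6 in T-mDCs. T-DC 2 and T-DC 3 were close to each other in this last set, at 2.32 and 2.10 times the mean of the mature libraries. These sums are carried by few genes, and most members with long ends were low in mature cells. Of the 23 members that run over 100 bases past the stem-loop, 5 had a mean of at least 3 FPKM over the 6 mature libraries (Hist1h1c, Hist3h2ba, Hist1h4i, Hist3h2a and Hist1h2bg) and 17 had under 1 FPKM. Of the 5 with no stem-loop and a long end, 2 reached that mean (Hist1h2bc and Hist2h2be) and 3 had under 1 FPKM. No member of the sets with short ends had a mean of 3 FPKM there. The median member was at 0.314 FPKM with a long end past the stem-loop and at 0.18 with a long end and no stem-loop, beside 0.455 and 0.117 in the sets with short ends, so that the kinds of end did not order the typical member. T-DC 3 also stood apart in small structured RNAs, with Rn7sk at 242 FPKM against 1.48 to 56.9 in the other 8 libraries and Gm23935 at 90622 against 5478 to 14794, and the part of this in the level of members with short ends was not tested. Whether the RNA had been selected by poly(A) is not given in the sources used here, and its part in the levels was not tested.

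**Figure D4:**
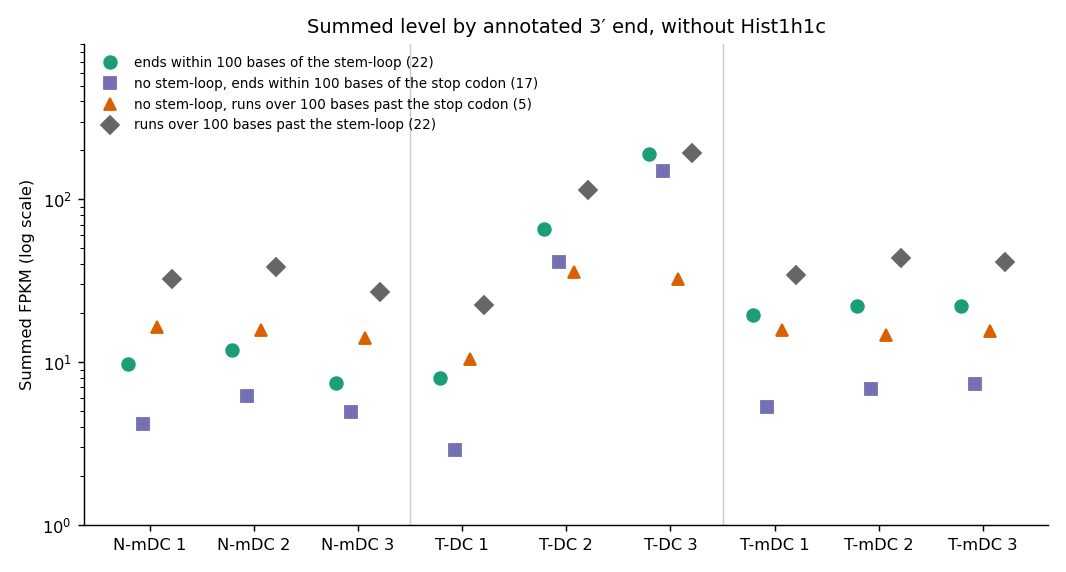
Summed FPKM (log axis) in each of the 9 libraries for 4 kinds of annotated 3′ end (symbols), leaving out Hist1h1c, with 1 point per library and kind. T-DC 3 exceeds T-DC 2 in the sets with short ends, and both are close in the 5 members with no stem-loop and a long end.

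In the divergent pairs both genes mostly followed the same libraries, as most members did. Both genes were above T-DC 1 in T-DC 2 and in T-DC 3 in 12 of the 13 pairs. Of all members with a read in either library compared, T-DC 2 was above T-DC 1 in 56 of 57 and T-DC 3 in 57 of 59. The count of pairs is therefore not particular to pairs. The remaining pair was Hist1h2ba and Hist1h2aa, the latter listed at 0 in all libraries. Levels within a pair could still be unequal, and Hist1h2ac, the partner of Hist1h2bc, was at 0.335, 0.275 and 0.244 FPKM in N-mDCs, 0.180, 0.858 and 0.478 in T-DCs, and 0.235, 0.313 and 0.482 in T-mDCs, a small part of the level of Hist1h2bc given above. This pair was picked after its values were seen.

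Genes that make and process histone mRNA were read from a list of 16 fixed genes, of which 14 were tested. Slbp, whose protein binds the stem-loop, was at 9.74, 9.01 and 9.95 FPKM in N-mDCs, 8.38, 44.4 and 42.0 in T-DCs, and 9.86, 11.4 and 11.1 in T-mDCs. T-DC 1 was the lowest of the 9 libraries and the others of the group were above all mature ones, with a log2 difference of 1.32 (SE 0.53, adjusted p = 0.113, limma) against N-mDCs. Npat, the coactivator of histone gene transcription, was at 3.40, 1.74 and 4.13 in N-mDCs, 2.92, 5.54 and 6.29 in T-DCs, and 4.0, 4.66 and 4.67 in T-mDCs, with a log2 difference of 0.53 (adjusted p = 0.232, limma). Of the 14 genes, 2 rose in T-DCs against N-mDCs. Upf1, a helicase that takes part in histone mRNA decay, was at 22.9, 23.9 and 24.9 in N-mDCs, 34.9, 49.7 and 55.4 in T-DCs, and 29.1, 26.2 and 27.6 in T-mDCs. All T-DC libraries, T-DC 1 included, were above all mature ones, and the log2 difference was 0.91 (adjusted p = 0.0163, limma) against N-mDCs and 0.71 (adjusted p = 0.0428, limma) against T-mDCs. The latter call was lost under TPM scaling and with T-mDC 2 and T-mDC 3 taken as 1 sample. Eri1, an exonuclease that trims the histone mRNA end, was at 6.53, 4.43 and 5.86 in N-mDCs, 8.52, 13.4 and 13.4 in T-DCs, and 7.62, 8.0 and 8.22 in T-mDCs, with a log2 difference of 0.94 (adjusted p = 0.0205, limma) against N-mDCs. Between T-mDCs and N-mDCs 0 of the 14 were called by limma, and 0 had an unadjusted p below 0.05. Without T-DC 1, 9, 6 and 0 of the 14 were called when T-DCs were compared with N-mDCs, when they were compared with T-mDCs, and when T-mDCs were compared with N-mDCs.

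DNA replication and mitosis genes were also high in T-DC 2 and T-DC 3 and not in T-DC 1. The 43 DNA replication genes summed to 412, 523 and 409 FPKM in N-mDCs, 390, 1998 and 2515 in T-DCs, and 563, 642 and 639 in T-mDCs. As for the H3 and H2B sums, T-DC 1 was the lowest library, T-DC 3 was the highest, and all T-mDC libraries were above all N-mDC libraries. In T-DCs against N-mDCs 1 of the 43 rose (Pola2, log2 difference 1.24, adjusted p = 0.0435, limma) and the median log2 difference was 1.24, while without T-DC 1 all 43 were called and with T-mDC 2 and T-mDC 3 taken as 1 sample 0 were (limma). The 22 mitosis genes summed to 130, 154 and 106 in N-mDCs, 114, 1709 and 1685 in T-DCs, and 273, 418 and 413 in T-mDCs. Mki67, a marker of cycling cells, was at 8.50, 8.70 and 8.80 in N-mDCs, 8.25, 247 and 183 in T-DCs, and 21.9, 36.2 and 34.3 in T-mDCs, with a log2 difference of 2.96 (adjusted p = 0.0849, limma) against N-mDCs. In both of these T-DC 2 was above T-DC 3, unlike in 49 of the 60 detected members. Of the 22 mitosis genes 0 were called by limma in T-DCs against N-mDCs with T-DC 1, where 19 had an unadjusted p below 0.05, and 22 were called without it. Among 13 histone chaperones and acetyltransferases 0 were called by limma in T-DCs against N-mDCs with T-DC 1, where 6 had an unadjusted p below 0.05, and 11 were called without it. Of all 12746 genes tested, 4472 had an unadjusted p below 0.05 (limma) in T-DCs against N-mDCs with T-DC 1. Asf1b, a chaperone that hands new H3 and H4 on during replication, was at 7.69, 9.54 and 5.23 in N-mDCs, 6.23, 76.8 and 72.9 in T-DCs, and 11.9, 17.5 and 17.5 in T-mDCs, and was picked after its values were seen.

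Histone genes listed as replication-independent differed among themselves. Whether each of them is expressed through the cell cycle or polyadenylated was not tested. The 15 listed genes summed to 1554, 1212 and 1160 FPKM in N-mDCs, 925, 1519 and 1456 in T-DCs, and 1062, 1227 and 1213 in T-mDCs, and T-DC 2 and T-DC 3 lay within the range of N-mDCs. This sum is carried by H3f3b and H2afz, and 2 lower genes of the list, picked after their values were seen, had the pattern of the members. H2afx, whose product is phosphorylated at DNA breaks, was at 53.6, 88.9 and 43.2 in N-mDCs, 42.4, 338 and 313 in T-DCs, and 89.6, 119 and 116 in T-mDCs. Cenpa, the H3 variant of centromeres, was at 9.29, 9.85 and 8.46 in N-mDCs, 4.39, 41.3 and 48.8 in T-DCs, and 8.08, 12.7 and 13.2 in T-mDCs. In both, T-DC 1 was the lowest of the 9 libraries and T-DC 2 and T-DC 3 the highest, with log2 differences against N-mDCs of 1.47 (adjusted p = 0.174) and 1.14 (adjusted p = 0.29) in the limma fit, and both were called without T-DC 1. H3f3a, which encodes the variant H3.3, rose in T-DCs against N-mDCs from 122, 95.8 and 104 to 140, 346 and 234, with a log2 difference of 1.07 (adjusted p = 0.0454, limma). H3f3b, which encodes the same protein, was at 864, 516 and 609 in N-mDCs and at 468, 411 and 351 in T-DCs. H2afy, which encodes a macroH2A, fell by 0.88 on the log2 scale in T-DCs against N-mDCs (adjusted p = 0.0325, limma). H1fx rose in T-mDCs against N-mDCs from 0.158, 0.459 and 0.588 to 13.2, 3.57 and 4.56, with a log2 difference of 2.36 (adjusted p = 0.0262, limma). These 3 were the genes called among the 11 tested of this list in the comparisons with N-mDCs, and under TPM scaling H1fx was still called while H3f3a and H2afy were not. With T-mDC 2 and T-mDC 3 taken as 1 sample, 0 genes of this list were called by limma in any of the 3 comparisons.

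Of the markers of other cells, the erythroid and granulocytic sums were highest in T-DC 2 and T-DC 3, and the other sums did not have this order. Summed FPKM of 15 erythroid genes was 111, 5409 and 505 in N-mDCs, 648, 61052 and 44755 in T-DCs, and 200, 33.6 and 27.1 in T-mDCs. Hbb-bt, a beta globin, was at 11.4, 565 and 49.0 in N-mDCs, 68.6, 8485 and 5521 in T-DCs, and 18.7, 1.77 and 1.39 in T-mDCs. The 15 genes were at 0 in no library, and 5 of them were called higher in T-DCs against N-mDCs and 14 against T-mDCs (limma), which became 1 and 0 with T-mDC 2 and T-mDC 3 taken as 1 sample. Summed FPKM of 9 neutrophil and granulocyte precursor genes was 56.7, 414 and 663 in N-mDCs, 9.05, 4398 and 1543 in T-DCs, and 3.78, 15.8 and 14.3 in T-mDCs. In both lists T-DC 2 and T-DC 3 were above all mature libraries. The erythroid sum of T-DC 1 was above every T-mDC sum and within the range of N-mDCs. Its granulocytic sum was within the range of T-mDCs. T-DC 2 exceeded T-DC 3 in both lists, whereas for the core histones T-DC 3 was the higher. Summed T lineage genes, which could mark leukemia cells, were at 19.6, 53.0 and 14.6 in T-DC 1, 2 and 3 and at 51.8 to 101 in the mature libraries. Cd8a was the largest part of the mature sums, at 32.0 to 92.9 FPKM there and 4.99 in T-DC 2. Of the 15 listed genes, Cd3d, Cd3g, Thy1, Dntt, Ptcra, Rag1, Bcl11b and Themis were highest in T-DC 2 of all 9 libraries. Cd3d was at 5.94 there and at 0.525 to 4.38 in the mature libraries. Cd8a, Cd8b1, Lck, Lat, Cd247, Cd3e and Rag2 were not highest in T-DC 2. Summed B lineage genes were at 490, 3750 and 1330 in T-DC 1, 2 and 3 and at 357 to 3760 in the mature libraries, and NK cell genes at 9.30, 34.2 and 8.24 against 23.2 to 215. Red pulp macrophage genes summed to 2204, 752 and 436 in T-DC 1, 2 and 3 and to 273 to 2949 in the mature libraries. The part of erythroid, granulocytic, T lineage or cycling cells in the histone levels was not tested.

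**Figure D5:**
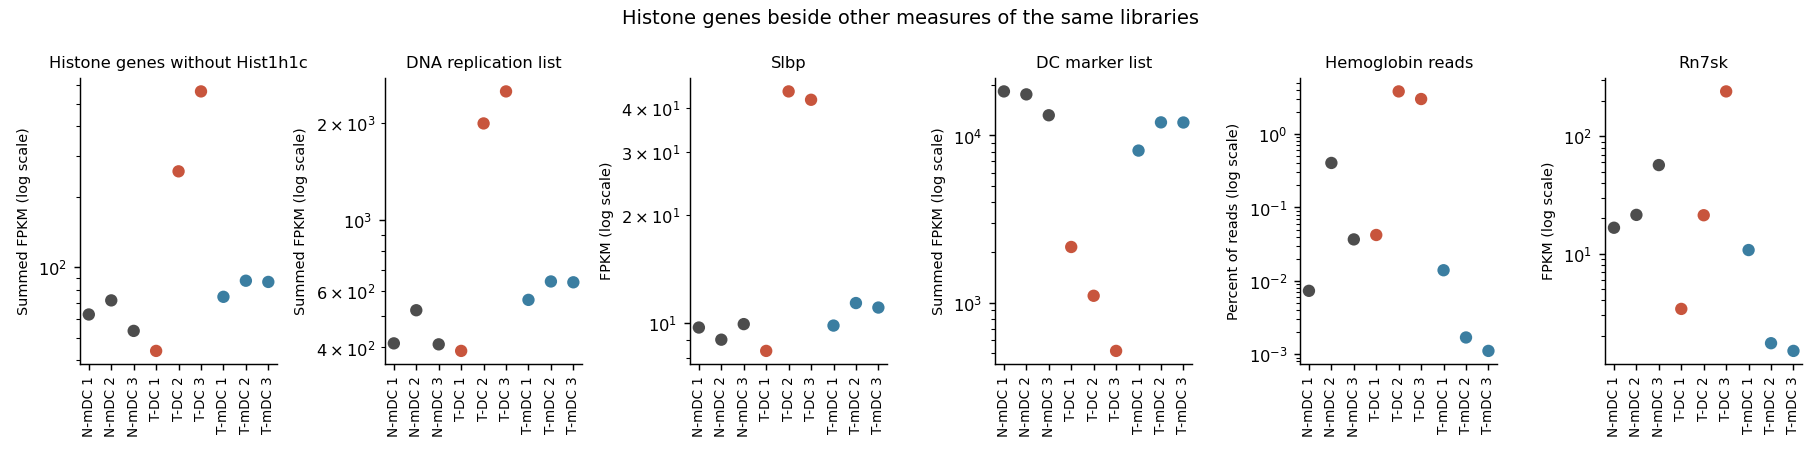
Summed FPKM of the histone genes without Hist1h1c, of the DNA replication list and of the dendritic cell (DC) marker list, FPKM of Slbp and of Rn7sk, an abundant small nuclear RNA, and percent of reads on hemoglobin genes, all on log axes, in each of the 9 libraries (N-mDCs grey, T-DCs red, T-mDCs blue). T-DC 2 and T-DC 3 lie above the other 7 libraries for the histone, replication, Slbp and hemoglobin measures, T-DC 3 alone is the highest for Rn7sk, and all 3 T-DCs are lowest for DC markers. The DC marker sum is carried by MHCII genes, and MHCII was the gate.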

How the data were processed

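Total RNA of the 9 sorted samples had been sequenced by a company. The authors deposited 1 table of FPKM per gene with gene coordinates in mm10; the aligner, annotation, strandedness and any poly(A) selection are not given in the sources used here. FPKM times gene length over 1000, divided by the value of 1 read, came out whole to within 5.8e-05, which gave the reads per gene. The 12746 genes that reached 1 FPKM in 3 or more samples were tested with limma 3.58.1 in R 4.3.3 (trend, pseudocount 1, all 9 samples in 1 fit), with Benjamini-Hochberg adjustment over all of them and a threshold of 0.05. Log2 differences are on the log2(FPKM + 1) scale, which understates those of low genes. SE is the standard error from limma, and class sums add the FPKM of members. The fit was tested on simulated data. The members, lists and named genes were chosen with earlier results of these data known. Members named are the 4 with the highest mean level in each class, and those called. The lists cover histone mRNA processing, DNA replication, mitosis, chaperones, replication-independent histones, dendritic cells and other cell types. Alternatives were other pseudocounts, filters, scalings and weights, limma voom on recovered reads, a replicate block and leaving out each library. Sequences came from GENCODE M21 transcripts and RefSeq promoters (GRCm38); 67 of 67 members had the same start and end in GENCODE M21.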

Additional observations from a re-analysis of the deposited data

Results flagged for a closer look

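Members of the clusters that are annotated as pseudogenes lay outside the comparisons, and 2 of the 3 had levels above the controls. Hist1h2aj was at 0, 0 and 0 FPKM in N-mDCs and at 0.159, 1.65 and 0.936 in T-DCs, from 1, 9 and 5 reads, so that every T-DC library was above every N-mDC library. Hist3h2bb-ps was at 0.688, 0.401 and 0.711 FPKM in N-mDCs, from 5, 3 and 6 reads, and at 0.911, 1.56 and 1.64 in T-mDCs, from 8, 14 and 14 reads, with every T-mDC library above every N-mDC library. Neither difference was tested, and reads shared with intact histone genes cannot be told apart from reads of the pseudogenes.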

How the results depend on the processing

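Of the 28 tested members, 2 were called in T-DCs against N-mDCs, and this count was 0 with no filter and when only these groups were fitted, 1 with a filter of 5 FPKM, 24 with array weights (23 higher and 1 lower), and 0 to 25 when each library was left out (0 without N-mDC 1 or N-mDC 2, 25 without T-DC 1, 1 without T-DC 3). In T-DCs against T-mDCs the count of 0 became 1 (Hist1h2ab) with a pseudocount of 0.1, TPM or quantile scaling, 24 with array weights (22 higher and 2 lower), and 0 to 21 when each library was left out (21 without T-DC 1). In T-mDCs against N-mDCs the count of 0 became 1 (Hist1h2bg) with quantile scaling, 3 when only these groups were fitted, 6 with array weights, and 0 to 3 when each library was left out (3 without T-DC 1, 1 without T-DC 3). The array weights did not converge and gave T-DC 2 a weight of 46.6 and T-DC 1 one of 0.0872, so those values rest almost on T-DC 2. With these weights 8485, 9923 and 3841 of all 12746 genes were called in the 3 comparisons, in the order above. Limma voom on recovered reads gave the same counts of 2, 0 and 0. Replicate numbers did not pair the samples (correlations of same-numbered samples -0.475 to 0.269), and with the replicate block 2, 0 and 0 members were called, with 1378, 1253 and 78 of all genes beside 2096, 1813 and 282 without it.

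The log2 ratio of the H1 sums without Hist1h1c was 3.26 in T-DCs against N-mDCs (0.16 with it), 2.67 in T-DCs against T-mDCs (0.31 with it, 0.01 under TPM) and 0.59 in T-mDCs against N-mDCs (-0.15 with it). In T-mDCs against N-mDCs the ratio for H2A was 0.79 without its highest member beside 0.22, for H3 0.76 beside 1.11, and for H2B 0.72 under TPM beside 0.49. The cause was not tested. Leaving out each T-DC library, which was added after seeing the data, gave ratios between T-DCs and N-mDCs of 1.65 (without T-DC 3) to 3.57 (without T-DC 1) for H3, beside 3.02, and of 1.60 to 3.30 for H4, beside 2.77.

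Named members whose sign turned were near 0 or spread widely. Hist1h1c turned to -0.06 (TPM), -0.04 (quantile) and -0.50 (array weights) against N-mDCs in T-DCs, to -0.20, -0.18, -0.02 (voom) and -0.10 (array weights) in T-DCs against T-mDCs, and to 0.14, 0.15 and 0.02 (voom) in T-mDCs against N-mDCs. In T-DCs against T-mDCs, Hist1h2bg turned to -0.003 (pseudocount 0.1), -0.32 (TPM), -0.10 (quantile), -0.18 (voom) and -0.58 (array weights), Hist1h3a to -0.21 (TPM) and -0.15 (voom), Hist1h3c to -0.11 and -0.27, and Hist3h2a to 0.19 (array weights). In T-mDCs against N-mDCs, Hist1h2ab turned to 0.03 (TPM) and 0.09 (quantile), Hist1h2bc to 0.15 (TPM) and 0.03 (voom), Hist1h3i to -0.04 (array weights), and Hist1h4i to 0.04 (TPM) and 0.13 (array weights). When each library was left out, the signs also turned for Hist1h1c (-0.27 to 0.37 in T-DCs against N-mDCs, -0.06 to 0.26 against T-mDCs, -0.39 to 0.25 in T-mDCs against N-mDCs), for Hist1h2bg (-0.44 to 0.24), Hist1h3a (-0.49 to 0.80), Hist1h3c (-0.51 to 1.5) and Hist3h2ba (-0.08 to 1.51) in T-DCs against T-mDCs, and for Hist1h2ab (-0.13 to 0.02), Hist1h2ak (-0.11 to 0.23), Hist1h3h (-0.24 to 0.36), Hist1h3i (-0.19 to 0.28) and Hist1h4i (-0.30 to 0.04) in T-mDCs against N-mDCs. Of the turned values from other settings, the array-weight values of Hist1h1c in T-DCs against N-mDCs (adjusted p = 0.0256, limma) and of Hist1h2bg in T-DCs against T-mDCs (adjusted p = 0.00305, limma) passed the threshold.

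Levels of most members in the 6 mature libraries rest on few reads, and with 3 samples a group the SE of the log2 difference between T-DCs and N-mDCs ran from 0.25 (Hist3h2a) to 0.95 (Hist1h4k) among the named members. T-mDC 2 and T-mDC 3 taken as 1 sample left the calls of members at 2, 0 and 0, with 8 samples in the fit, while calls in other lists were lost.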
